A study of Mus musculus with 4 samples.

Results

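The mRNA of 10 desmosome genes was examined, namely the cadherins Dsg1a, Dsg1b, Dsg2, Dsg3, Dsc1, Dsc2 and Dsc3 and the plaque genes Dsp, Pkp1 and Jup. The genes were selected by name, and all 10 were found among the 24441 rows of the deposited gene table. Desmosomes are the spot-like junctions that hold keratinocytes to each other. Their adhesive part consists of the desmosomal cadherins, desmogleins (Dsg) and desmocollins (Dsc), which reach across the gap between neighbouring cells. Inside the cell, the armadillo proteins plakoglobin (Jup) and plakophilins (Pkp) bind the cadherin tails, and desmoplakin (Dsp) ties them to keratin filaments. In the epidermis the cadherins change with the layer: Dsg3, Dsc3 and, at lower levels, Dsg2 and Dsc2 are characteristic of the lower layers, while Dsg1 and Dsc1 are characteristic of the upper, differentiating layers.

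The samples were 2 libraries of skin from GSDMD-/- (KO) mice and 2 from wild type (WT) mice, as labelled. GSDMD is the executor of pyroptosis, a lytic form of cell death, and the comparison asks how its loss alters the transcriptome of fibrotic skin. The mice were female C57BL/6 mice labelled as 8 weeks old, and both genotypes received subcutaneous bleomycin (BLM), a cytotoxic antibiotic that induces skin fibrosis, every other day for 28 days. The KO mice came from a commercial line made by injecting Cas9 mRNA and a guide RNA into C57BL/6 zygotes. No library of saline-treated skin was analysed here, so the values describe BLM-treated skin of both genotypes only. The values are FPKM, fragment numbers scaled to the length of the transcript and the size of the library, so levels of different genes can be compared.

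Some features of the libraries should be read beside the values below. Gsdmd, the targeted gene, had 14.0 and 18.2 FPKM in WT skin against 3.53 and 2.26 FPKM in KO replicates 1 and 2, lower in both KO libraries than in both WT libraries. The depth, estimated from the step that 1 fragment makes in the values of low genes, was 12.8 to 17.4 M fragments per library and is approximate. Keratinocyte mRNA was abundant in each library, with Krt14, a basal layer keratin, between 1215 and 2735 FPKM. Basal keratinocyte markers (7 genes, all higher in KO) summed to 2188 and 2278 FPKM in WT and to 4828 and 5284 FPKM in KO, while suprabasal markers (6 genes) summed to 8962 FPKM in KO replicate 1 and to 2170 FPKM in KO replicate 2, against 2425 and 4324 FPKM in WT. KO replicate 2 stood apart from the other libraries. Its fibroblast markers (6 genes) summed to 24.9 FPKM against 180 to 422 FPKM in the other 3 libraries, its endothelial markers (5 genes) to 7.54 against 63.4 to 94.2 FPKM, its macrophage markers (6 genes) to 28.7 against 337 to 775 FPKM and its adipocyte markers (5 genes) to 139 against 2009 to 5425 FPKM. KO replicate 1 was highest for hair follicle markers (15 genes, 374 FPKM in sum against 2.33 to 15.5 FPKM in the others). Sebaceous gland markers (5 genes) had a mean log2(FPKM + 1) of 7.69 in KO replicate 2, against 4.76 to 5.83 in the others, while their summed FPKM was 758 and 2081 in WT against 790 and 2200 in KO, with Scd1 highest in WT replicate 2. Skeletal muscle markers (5 genes) were detected in all libraries, with sums of 18908 and 19954 FPKM in WT against 12235 and 12493 FPKM in KO. The part of these differences in the results was not tested. In bulk skin, more keratinocytes and more mRNA per keratinocyte cannot be told apart.

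**Figure D1:**
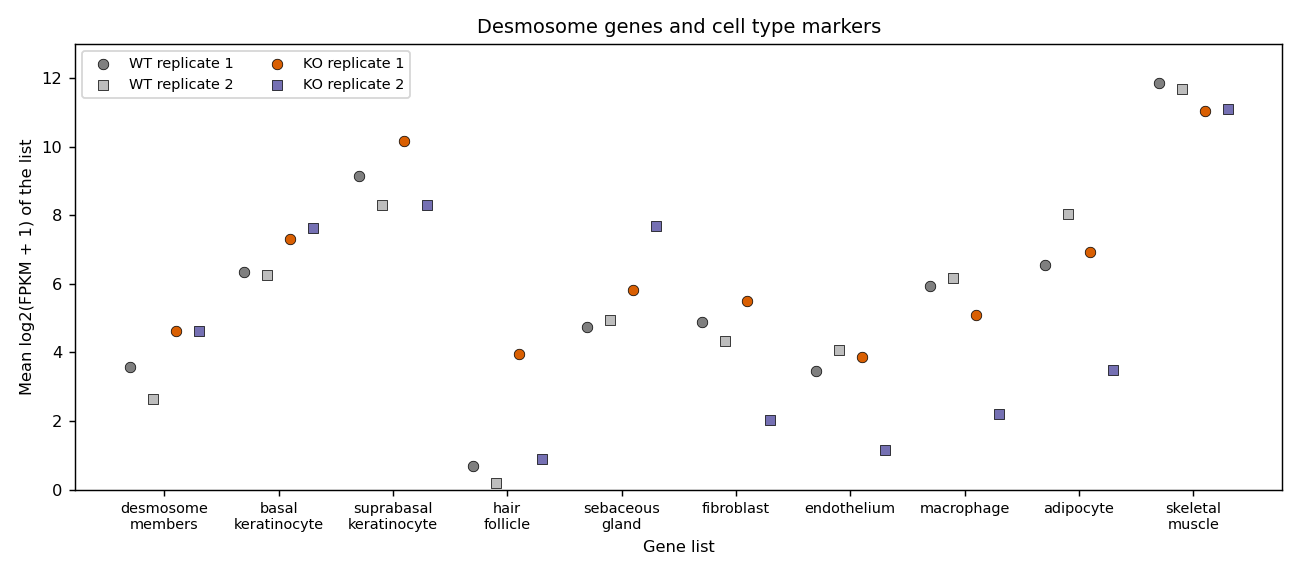
Mean log2(FPKM + 1) (y axis) of the 10 desmosome genes and of marker gene lists (x axis) with one point per library (circles, replicate 1 of a genotype; squares, replicate 2). The desmosome genes averaged 3.57 and 2.63 in WT and 4.61 and 4.63 in KO, while KO replicate 2 was lowest for the fibroblast, endothelium, macrophage and adipocyte lists.

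In the mouse genome build mm9, the plaque genes lie apart. Dsp lies on chromosome 13 from 38243163 to 38290446, Pkp1 on chromosome 1 from 137767971 to 137815784 and Jup on chromosome 11 from 100230170 to 100259104. RefSeq promoter windows (250 bases before to 50 after the start, build GRCm38.p6) were matched for 2 members, Dsp at chr13:38151044-38151343 (plus strand) and Jup at chr11:100397741-100398040 (minus strand). They are shown because no window was matched for the other members. Dsp and Jup encode partners in one structure and had different fitted KO differences, a contrast that was not tested. Capitals mark matches to the GC box GGGCGG on either strand and, in Dsp, 1 match to the AP-2 letters GCCNNNGGC, which shares a base with a GC box.
Dsp: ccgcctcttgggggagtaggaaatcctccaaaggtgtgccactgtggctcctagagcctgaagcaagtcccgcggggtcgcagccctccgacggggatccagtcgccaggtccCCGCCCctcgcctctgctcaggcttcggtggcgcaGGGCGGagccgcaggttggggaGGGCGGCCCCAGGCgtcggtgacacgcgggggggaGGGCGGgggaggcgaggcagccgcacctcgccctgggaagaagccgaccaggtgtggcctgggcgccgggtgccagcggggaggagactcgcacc
Jup: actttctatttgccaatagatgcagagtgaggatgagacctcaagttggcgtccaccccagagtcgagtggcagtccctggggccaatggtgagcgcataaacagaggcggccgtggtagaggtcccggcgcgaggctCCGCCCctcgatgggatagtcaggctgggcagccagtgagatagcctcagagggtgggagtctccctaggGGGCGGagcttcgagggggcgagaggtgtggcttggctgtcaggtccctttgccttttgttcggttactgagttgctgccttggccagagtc
The GC box was matched 4 times in the Dsp window and 2 times in the Jup window, and 35.7% of all 32851 windows hold it at least once. The AP-2 letters occur in 16.6% of all windows. AP-1 (TGANTCA), TEAD (CATTCC) and TATA box (TATAAA) letters, found in 7.81%, 14.7% and 13.6% of all windows, were not present in these windows on either strand.

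The 7 cadherin members lie in one cluster on chromosome 18 of mm9, from 20119431 to 20763027. The cluster spans 643.6 kb and also holds Dsg1c and Dsg4. The nearest gene of the table before it, 4930545E07Rik, is 2379.9 kb away and was listed at 0 in all libraries. The nearest gene beyond its end, Ttr, begins 60.7 kb away and was at 0 to 0.371 FPKM in all libraries.

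All 10 desmosome genes had a higher mean in KO than in WT skin. Their FPKM values summed to 224 and 116 in WT replicates 1 and 2 and to 487 and 395 in KO replicates 1 and 2, with means of 170 ± 76.1 and 441 ± 64.9 FPKM (SD, n = 2 each), and both KO libraries were above both WT libraries. This was a 2.59-fold difference between the means, and the ratio was 1.97 without WT replicate 2 and 3.79 without WT replicate 1. Each gene was tested with limma on log2(FPKM + 1) together with all 13027 genes that had at least 1 FPKM in at least 2 libraries. With the limits used in the study (0.05 for the adjusted p and 1 for the size of the log2 fold change), limma with Benjamini-Hochberg adjustment called 0 of the 10 genes and 0% of all tested genes. When these limits were applied to the unadjusted p, 8 of the 10, all but Jup and Dsc1, were higher in KO, against 6.16% of all tested genes, and 0 were lower, against 4.14%. In 8 of the 10 both KO libraries lay above both WT libraries, against 35.3% of all tested genes. The median log2 fold change of the 10 genes was 1.54, beside 0.11 for all tested genes. The value was above 0 for all 10, against 7635 of all 13027 tested genes. All 10 genes passed the filter on low values, but Dsg2 and Dsc2 passed only through the KO libraries, the group where they are high, and are counted above. Of the other 8 genes, 6 passed the unadjusted limits and 6 had groups that did not overlap. Individual libraries mattered for the calls. Without KO replicate 1, Dsg2, Dsg3, Dsc2 and Dsc3, or 4 of the 10, passed the adjusted threshold, against 6.59% of all tested genes called higher, and 2 of these 4 are Dsg2 and Dsc2. Without KO replicate 2, whose fibroblast, endothelial, macrophage and adipocyte markers were low, 0 of the 10 passed it, against 0.215%, the unadjusted limits were passed by 9, against 5.63%, and the median log2 fold change was 1.66. Without WT replicate 2, the lowest library for all 10 genes, 4 and not 8 of the 10 passed the unadjusted limits, against 2.04% of all tested genes. In a fit blocked on the replicate number, 9 of the 10 passed them, against 6.96% of all tested genes, and with the numbers crossed, a fit chosen after seeing the data, 7 passed them, against 6.29%. For 2 libraries against 2, the smallest p of an exact permutation test (two-sided) is 0.333.

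**Figure D2:**
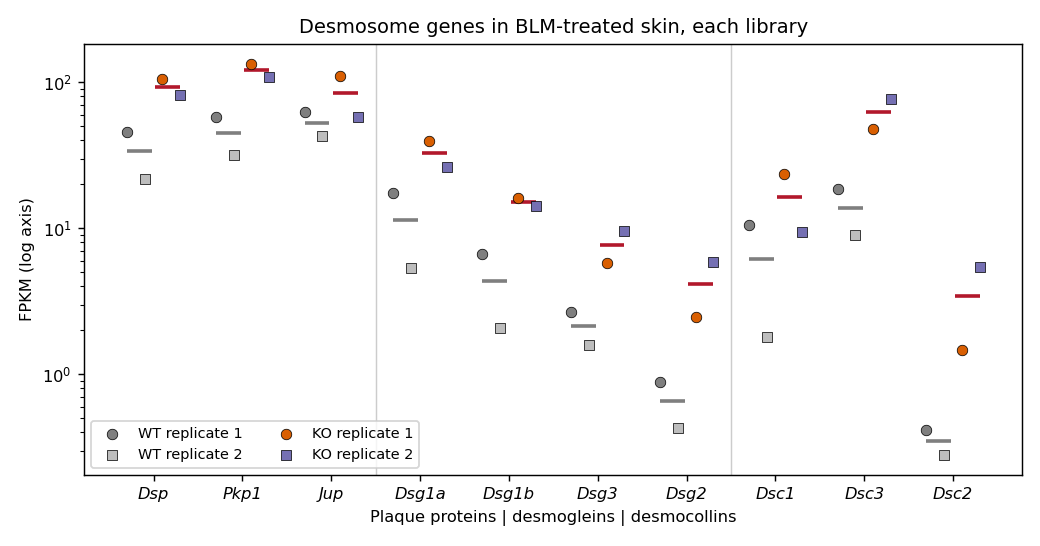
FPKM (log axis) of each desmosome gene in the 4 libraries, with short bars at the group means (grey, WT; red, KO). WT replicate 2 was the lowest library for all 10 genes, KO replicate 1 the highest for 6 and KO replicate 2 the highest for 4.

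Per length, the plaque genes were the 3 most abundant members in every library but KO replicate 2, where Dsc3 stood between Dsp and Jup. Dsp, which anchors keratin filaments to the junction, had 45.6 and 21.6 FPKM in WT skin against 105 and 81.9 FPKM in KO replicates 1 and 2. The groups did not overlap, and the log2 fold change was 1.53 (SE 0.41, limma adjusted p = 0.248). It was 1.00 without WT replicate 2 and 2.05 without WT replicate 1. An exon of Dsp overlaps the annotated gene Gm10129 on the opposite strand, and whether the quantification used the strand is not given in the sources used here. Pkp1, the plakophilin that clusters desmosomal proteins in the upper epidermis, had 58.2 and 31.5 FPKM in WT skin against 134 and 108 FPKM in KO skin. Again both KO libraries were above both WT libraries, with a log2 fold change of 1.47 (SE 0.36, limma adjusted p = 0.248). Jup, which is shared between desmosomes and adherens junctions, had the smallest difference of the 10 over all 4 libraries, with 63.0 and 42.7 FPKM in WT skin against 111 and 57.5 FPKM in KO skin. KO replicate 2 lay between the WT libraries, and the log2 fold change was 0.61 (SE 0.41, limma adjusted p = 0.444). Leaving out KO replicate 1 gave 0.15, and leaving out KO replicate 2 gave 1.08. Jup was the first of the 10 genes by level in both WT libraries, the second in KO replicate 1 and the fourth in KO replicate 2. The ratio of Dsp to Jup was 0.725 and 0.506 in WT and 0.943 and 1.42 in KO libraries. Jup took 37.8% and 44.5% of the summed plaque FPKM in WT and 31.7% and 23.2% in KO libraries.

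Among the desmogleins, Dsg1a was the most abundant in every library. Dsg1a and Dsg1b are closely related copies of the desmoglein 1 gene. Dsg1a had 17.4 and 5.31 FPKM in WT skin against 39.8 and 26.2 FPKM in KO skin, a log2 fold change of 1.63 (SE 0.56, limma adjusted p = 0.268). Dsg1b, at a lower level, had 6.62 and 2.09 FPKM in WT skin against 16.1 and 14.3 FPKM in KO skin, with a log2 fold change of 1.74 (SE 0.47, limma adjusted p = 0.248). For both copies the KO libraries lay above the WT libraries, and the WT libraries themselves differed 3.28-fold and 3.16-fold. Without WT replicate 2 the log2 fold change was 0.86 for Dsg1a, which then missed the unadjusted limits, and 1.09 for Dsg1b, and without WT replicate 1 it was 2.40 for Dsg1a and 2.39 for Dsg1b. The split between the copies is uncertain, because 29.2% of the 75-base windows of the Dsg1a transcript and 39.7% of those of Dsg1b occur unchanged in another Dsg1 transcript. Dsg3, the desmoglein of the lower epidermis, had 2.66 and 1.60 FPKM in WT skin against 5.83 and 9.56 FPKM in KO skin. Its log2 fold change was 1.46 (SE 0.34, limma adjusted p = 0.248). Dsg2, the most widely expressed desmoglein of epithelia, had 0.883 and 0.429 FPKM in WT skin, about 88.7 and 35.4 fragments at the estimated depth, against 2.45 and 5.91 FPKM in KO skin. The groups did not overlap for either gene, and Dsg2 had a log2 fold change of 1.57 (SE 0.41, limma adjusted p = 0.248). An exon of Dsg2 overlaps Gm16090 on the opposite strand. In contrast to the Dsg1 copies, both Dsg3 and Dsg2 were highest in KO replicate 2.

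Dsc3, the main desmocollin of the basal layer, had 18.7 and 9.04 FPKM in WT skin against 48.0 and 77.1 FPKM in KO replicates 1 and 2. Its log2 fold change was 2.14 (SE 0.43, limma adjusted p = 0.248), and it lay between 1.65 and 2.62 when any 1 library was left out. Its place among the 10 values depended on the setting. Without KO replicate 2 Dsc1 (2.11), Dsg1a (1.92) and Dsg1b (1.82) were above Dsc3 (1.80), and with a pseudocount of 0.1 Dsc2 (2.73) and Dsg2 (2.44) were above Dsc3 (2.22). Dsc1, the desmocollin of the upper layers, had 10.5 and 1.79 FPKM in WT skin against 23.4 and 9.49 FPKM in KO skin. WT replicate 1 was above KO replicate 2, so the groups overlapped. The log2 fold change of 1.50 had the largest standard error of the 10 genes (0.78, limma adjusted p = 0.364), and it was 0.48 without WT replicate 2 and 2.52 without WT replicate 1. Dsc2 was the lowest of the 10 genes in every library. It had 0.415 and 0.279 FPKM in WT skin, about 33.5 and 18.5 fragments, against 1.46 and 5.40 FPKM in KO skin. The groups did not overlap, with a log2 fold change of 1.56 (SE 0.49, limma adjusted p = 0.254) that moved to 2.25 when KO replicate 1 was left out and to 0.87 when KO replicate 2 was.

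**Figure D3:**
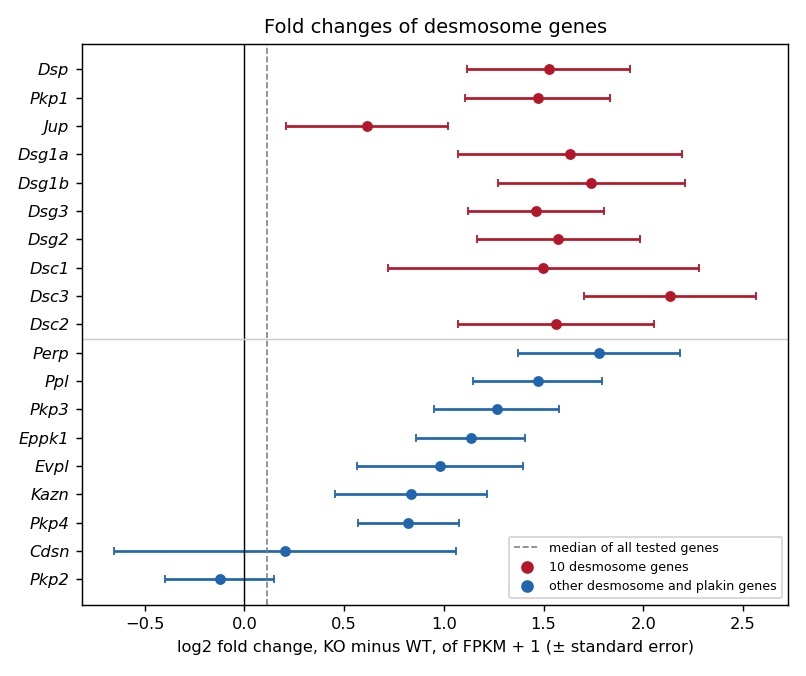
Log2 fold changes (KO minus WT, of FPKM + 1) with standard errors from limma (2 libraries per group) for the 10 desmosome genes (red) and the tested genes of a further desmosome and plakin list (blue), with the median of all tested genes as a dashed line. The 10 genes run from 0.61 (Jup) to 2.14 (Dsc3), and the median of all tested genes is 0.11.

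Although the family was higher in both KO libraries, the libraries differed in which members were high. The 6 genes Dsp, Pkp1, Jup, Dsg1a, Dsg1b and Dsc1 were highest in KO replicate 1, whereas Dsg2, Dsg3, Dsc2 and Dsc3 were highest in KO replicate 2. In KO replicate 2 Dsc2 was 3.70 times and Dsg2 2.41 times its level in KO replicate 1, while Dsc1 was 0.405 times that level. The ratio of Dsc1 to Dsc3 was 0.561 and 0.198 in WT replicates 1 and 2 and 0.489 and 0.123 in KO replicates 1 and 2. Similarly, the sum of Dsg1a and Dsg1b was 9.02 and 4.63 times Dsg3 in WT and 9.61 and 4.24 times Dsg3 in KO libraries. Both ratios separated replicate 1 from replicate 2 within each genotype more than WT from KO. The same split was present in the keratins of the layers, as the ratio of Krt10 (suprabasal) to Krt14 (basal) was 0.576 and 0.300 in WT and 0.621 and 0.0973 in KO libraries. Dsc3 took 63.2% and 81.4% of the summed desmocollin FPKM in WT and 65.8% and 83.8% in KO libraries, means of 72.3% ± 12.9 and 74.8% ± 12.7 (SD, n = 2 each). The difference between the genotypes was smaller than the spread between their libraries. Dsg2 took 3.21% and 4.56% of the summed FPKM of the 4 desmoglein members in WT and 3.82% and 10.6% in KO libraries. Summed desmogleins stood at 0.930 and 0.848 times summed desmocollins in WT and at 0.882 and 0.609 times in KO libraries.

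**Figure D4:**
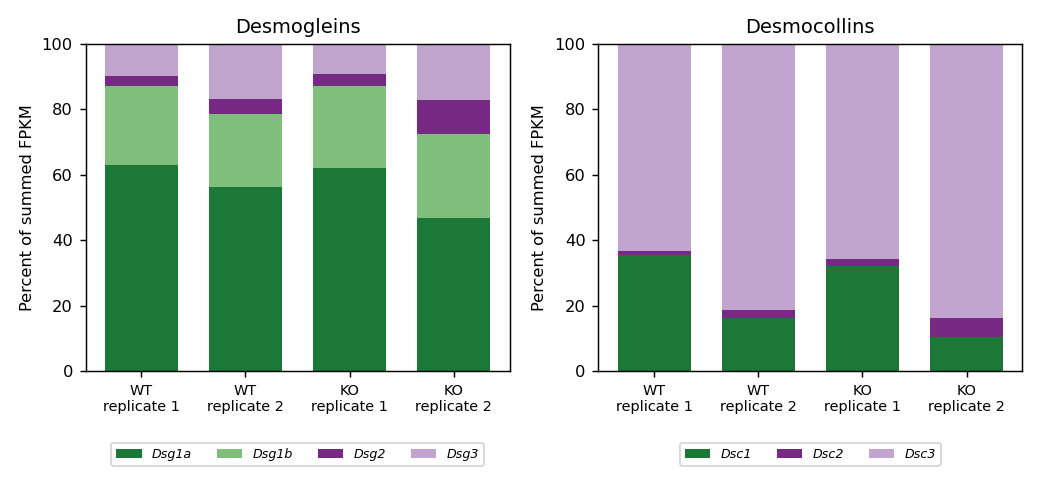
Share of each gene in the summed FPKM of the 4 desmoglein members (left) and the 3 desmocollins (right) in each library, in percent. Dsc1 took 35.4% and 32.2% of the desmocollins in replicate 1 of WT and KO and 16.1% and 10.3% in replicate 2.

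To set the desmosome genes against the amount of keratinocyte mRNA, the mean log2(FPKM + 1) of Krt5, Krt14, Krt1 and Krt10 was subtracted in each library, and the same limma model was fitted to all 13027 genes. This mean was 9.71 and 9.23 in WT and 10.9 and 9.58 in KO libraries. On this relative scale the median log2 fold change of the 10 genes was 0.78, beside -0.65 for all tested genes. The subtraction moves the fold change of every gene by the same amount. The distance between these medians is therefore that of the plain fit by construction. None of the 10 was called by limma with Benjamini-Hochberg adjustment (0 of 10, against 0.368% of all tested genes in either direction), and 0 of 10 passed the unadjusted limits, against 0.361% called higher and 6.5% called lower. The reference itself differed between the KO libraries, which adds to the spread of every gene. Standard errors of the 10 were 0.81 to 0.97, against 0.34 to 0.78 in the plain fit. The absence of calls therefore cannot show that the members followed the keratins. The relative difference was 1.37 for Dsc3 (SE 0.95, limma adjusted p = 0.889) and -0.15 for Jup (SE 0.96, limma adjusted p = 0.955). With a pseudocount of 0.1 those of Dsc2 (1.97) and Dsg2 (1.68) were above that of Dsc3 (1.45), and Dsc2 alone passed the unadjusted limits (1 of 10, against 0.706% of all tested genes), while 0 passed with adjustment, against 0.223%. In 3 of the 10, Dsc3, Dsp and Pkp1, both KO libraries were above both WT libraries, against 1.03% of all tested genes. For Dsp and Pkp1 this rested on small steps, with KO replicate 1 at -4.166 and WT replicate 1 at -4.168 for Dsp, and at -3.807 and -3.824 for Pkp1. The relative values came apart by KO library. Dsc3 was at -5.28 in KO replicate 1, close to -5.41 in WT replicate 1, and at -3.29 in KO replicate 2. Without KO replicate 1, 5 of the 10 were called by limma with adjustment, against 4.11% of all tested genes called higher, and 8 of the 10 passed the unadjusted limits, against 8.08%. Without Dsg2 and Dsc2, which passed the filter only through the KO libraries, these counts were 3 and 6 of the other 8 genes. The median of the 10 without KO replicate 1 was 1.40. Without KO replicate 2 the median was 0.25 and the value of Dsc3 was 0.38, and Dsg2, Dsg3, Dsc2 and Jup had lower values in KO than in WT, at -0.35, -0.27, -0.55 and -0.34. The choice of reference mattered as well. The median was 0.38 relative to 7 basal keratinocyte markers and 1.03 relative to 6 suprabasal markers.

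**Figure D5:**
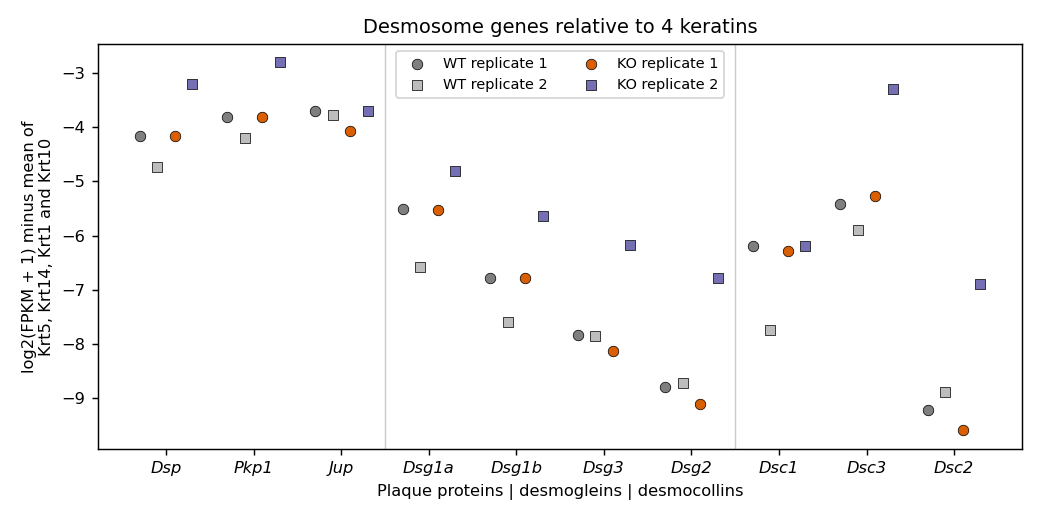
Log2(FPKM + 1) of each desmosome gene minus the mean of Krt5, Krt14, Krt1 and Krt10 in the same library. KO replicate 2 is highest for Dsc3 (-3.29 against -5.90 to -5.28 in the other libraries), while KO replicate 1 lies close to WT replicate 1 for Dsp, Pkp1, Dsg1a, Dsg1b, Dsc1 and Dsc3 and below it for the other genes.

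Other genes of the desmosome were compared with the 10. Of 11 listed desmosome and plakin genes, 9 were tested and 8 had a higher value in KO, against 7635 of all 13027 tested genes. The median log2 fold change of the 9 was 0.98, and 0 were called by limma with adjustment. With the unadjusted limits 4 of the 9 were higher, against 6.16% of all tested genes. Without WT replicate 2 the median was 0.64. Perp, a membrane protein of desmosomes that p63 controls, had 277 and 144 FPKM in WT skin against 575 and 820 FPKM in KO skin, and its log2 fold change was 1.78 (SE 0.41, limma adjusted p = 0.248). Ppl, which encodes the cornified envelope and desmosome protein periplakin, and Pkp3 had log2 fold changes of 1.47 and 1.27 (limma adjusted p = 0.248 in both). In Perp, Ppl and Pkp3 the groups did not overlap. The gene list also holds Pkp2, at 2.17 and 2.15 FPKM in WT skin against 1.46 and 2.42 FPKM in KO skin, which was the only tested member with a lower fitted value in KO. Cdsn, the corneodesmosome gene of the outermost layers, was at 89.6 and 48.0 FPKM in WT skin against 181 and 31.3 FPKM in KO replicates 1 and 2, so that the KO libraries enclosed the WT libraries. The remaining cadherins of the cluster were below the filter on low values and were tested only in an alternative fit without that filter. Dsg1c was at 0.0854 to 0.156 FPKM, at most about 8.8 fragments, and Dsg4, which is known from the hair follicle, at 0.0322 and 0.0198 FPKM in WT skin against 0.165 and 0.111 FPKM in KO skin, at most about 8.3 fragments. The groups did not overlap for Dsg4 and overlapped for Dsg1c.

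Genes of the other epidermal junctions had smaller median differences than the 10 desmosome genes, a comparison that was not tested. Of 9 adherens junction genes 8 were higher in KO, with a median log2 fold change of 0.97 that was 0.53 without WT replicate 2. Cdh1, the E-cadherin of keratinocytes, had 20.5 and 10.2 FPKM in WT skin against 44.2 and 66.6 FPKM in KO skin, a log2 fold change of 1.84 (limma adjusted p = 0.248). The other adherens genes with the largest differences were Afdn, an adaptor of nectins, and Cdh3, the basal P-cadherin, with log2 fold changes of 1.65 and 0.98. All 8 tight junction genes were higher, with a median of 0.82, led by the barrier claudin Cldn1 (log2 fold change 2.00), Ocln (1.23) and Cgn (1.10). All 6 gap junction genes were higher, with a median of 1.18 that was 1.83 without WT replicate 1, led by the connexin gene Gja1 (1.72). Of the 32 tested genes of these 4 lists 30 were higher in KO, against 7635 of all 13027 tested genes. None (0) were called by limma with adjustment. With the unadjusted limits 2 of the 9 adherens, 3 of the 8 tight and 3 of the 6 gap junction genes were higher, against 6.16% of all tested genes. Without KO replicate 1, the medians were 0.82 (other desmosome and plakin), 0.73 (adherens), 0.69 (tight) and 1.03 (gap junction).

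The centred mean profile of the 10 genes over the 4 libraries was -0.29 and -1.23 log2 units in WT and 0.75 and 0.77 in KO. Pkp1 and Dsp followed it most closely among the 10, with root mean square differences of 0.12 and 0.13 log2 units, while Dsc1, Jup and Dsc2 departed most, with 0.59, 0.58 and 0.56. Outside the 10, the 5 genes with the smallest difference from this profile over the 4 libraries were Tuft1 (0.033), Eps8l1 (0.064), Zfp750 (0.080), Ptgs1 (0.082) and Macc1 (0.084). Zfp750 encodes a transcription factor of epidermal differentiation, and Ptgs1 encodes cyclooxygenase 1. Tuft1, for instance, had 12.5 and 6.36 FPKM in WT skin against 26.5 and 26.9 FPKM in KO skin. With 4 libraries such a likeness is a description of these samples.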

How the data were processed

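RNA of BLM-treated skin was sequenced in paired-end mode, 2 KO and 2 WT, grouped by their labels. The submitters' processing notes name HISAT2 version 2.0.1, StringTie version 2.0.6 and the build mm9. The table deposited by the authors is named as counts but was read as FPKM, since 99.993% of its values above 0 are not whole, so no count model was used. The methods describe read counting and DESeq2 on counts, which were not used here, and the program behind the FPKM values is not given in the sources used here. Of 20310 genes found in the GENCODE annotation of mm9 by symbol, 99.2% overlapped it. Starts in the table count from 0 and were printed from 1.

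Values were transformed to log2(FPKM + 1), which understates changes of low genes. A gene was kept if 2 or more libraries reached 1 FPKM, and the model was fitted by limma version 3.58.1 (R version 4.3.3), genotype as the only term, moderation with a mean-variance trend and Benjamini-Hochberg adjustment. Tested on simulated data, with 200 of 13027 genes changed by 2 or 3 log2 units, the test called 94 genes, 92 of them changed. The simulated noise was independent between genes, and most of the 10 desmosome genes had smaller differences (0.61 to 2.14). The simulation therefore does not show how the test performs for them. Tables and figures used Python version 3.11.15. No source states that each library came from a separate animal, so p-values measure only the spread between these samples, which may be technical. Same-numbered WT and KO libraries were not paired by any source (correlation of deviations -0.20). Depth was estimated from low values of genes with transcripts of at least 2 kb.

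The members and gene lists were chosen with earlier results of these data known. Named genes were the 10 members, Gsdmd, the 3 largest changes of each junction list (some are not reported here), the cluster's neighbours, markers and the 5 genes nearest the members' profile. Pkp2 and Cdsn were named after their values were seen. Alternatives were other scalings, pseudocounts, filters, no trend, a replicate block, other keratinocyte references and leaving out each library.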

Additional observations from a re-analysis of the deposited data

How the results depend on the processing

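The log2 fold changes of the 10 desmosome genes were above 0 in all 138 alternative fits of single genes, from 0.15 to 2.73. Among these, the fits with another filter, no trend or a replicate block, numbered either way, repeat the main fold change by construction. The count called with adjustment was 0 of 10 in every fit with all 4 libraries, and was 8 with unadjusted p-values. The latter count was 9 of 10 in the fit blocked on replicate, which changed no adjusted call. The block with crossed numbers, chosen after seeing the data, gave 7 of 10, against 6.29% of all tested genes. Leaving out 1 library gave ratios of summed FPKM from 1.97 to 3.79 and differences in the Dsc3 share from -6.56 to 11.6 percentage points. The median log2 fold changes ran from 1.06 to 1.98 for the 10 genes and from 0.64 to 1.33 for other desmosome genes. They ran from 0.53 to 1.01 for adherens, 0.55 to 1.08 for tight and 0.80 to 1.83 for gap junctions. Where 1 library of a genotype remained, it was assumed to vary like the other group.

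Relative to the 4 keratins, leaving out 1 library gave 0 to 5 calls with adjustment and 0 to 8 with unadjusted p-values (3 and 6 at most without Dsg2 and Dsc2, which passed the filter only through KO), where a pseudocount of 0.1 gave 1, Dsc2 (0.706% of all tested genes). With 1 library left out, the relative log2 fold changes ran from -0.35 to 1.97 for Dsg2, -0.27 to 1.67 for Dsg3 and -0.044 to 1.52 for Dsc1. They ran from -0.55 to 2.14 for Dsc2 and from -0.34 to 0.037 for Jup. With all libraries, the value of Jup was 0.10 relative to suprabasal markers and -0.55 relative to basal markers. Median-ratio scaling moved the median of all tested genes from 0.11 to 0.01, and that of the 10 genes from 1.54 to 1.45. It moved the unadjusted split of all tested genes from 802 higher and 539 lower to 632 and 707. Apart from the references and libraries named, the causes were not tested. Dsg1c and Dsg4 did not pass the main filter and entered only the fit without a filter.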
